A study of Mus musculus with 14 samples.

Results

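Pdgfra, Ly6a, Dcn, Lum, Cd248, Dpt, Mfap5, Pi16, Clec3b and Smoc2 are markers of fibro-adipogenic progenitors (FAPs) and of the fibroblasts of connective tissue. The 10 genes were taken by symbol from the deposited expression tables of mouse hind limb skeletal muscle, where each was found in 1 row among 49585 genes. RNA-seq had been done on 12 libraries that form 4 groups of 3, namely uninjured muscle of wild-type (WT) mice, uninjured muscle of Myf6 knockout (KO) mice, injured WT muscle and injured Myf6 KO muscle. Myf6 (MRF4) is a member of the myogenic regulatory transcription factors, and the series concerns myokines, the signalling proteins that muscle secretes, and the pool of muscle stem cells. The series also holds ChIP-seq peaks of Myf6, pulled down with a Flag antibody from chromatin of primary myotubes (1 library, 1 control).

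The labels give genotype and injury only. Strain, age, sex, the kind of injury, the time after it and the design of the Myf6 allele are not given in the sources used here. Every uninjured library carries the letter L and every injured library the letter R with the same 3 numbers per genotype, read here as the left and right limb of 1 animal, so that injury and limb side cannot be told apart. WT and KO animals differ, and a difference of litter or batch cannot be told apart from genotype.

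FAPs are mesenchymal cells that lie between muscle fibres and carry the receptor PDGFRα. They are known to divide after muscle damage, to supply signals and matrix that support muscle stem cells, and to give rise to fibroblasts and adipocytes when repair goes astray. Pdgfra, Ly6a and Cd248 encode proteins of the cell surface, Dcn and Lum encode proteoglycans that bind collagen fibrils, Dpt, Mfap5 and Smoc2 encode other matrix proteins, and Pi16 and Clec3b are used as markers of fibroblasts found in many organs.

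Levels are given as RPM, reads of a gene per 1000000 reads assigned to genes. RPM is not corrected for transcript length, so levels are compared between libraries and not between genes. Whole muscle was sequenced, in which fewer cells of a type and less RNA per cell cannot be told apart. Recovered depth ran from 1880087 to 49392471 reads, and the shallowest library, uninjured WT replicate 2, held 29 reads of Pdgfra and 19 of Lum. Myf6 itself was at 25.0 to 121 RPM in the 6 WT libraries and at 1.86 to 3.46 RPM in the 6 KO libraries, so no library went against its genotype label. Mitochondrial genes took 18.1%, 22.3% and 13.8% of reads in uninjured WT against 6.76%, 15.3% and 3.63% in uninjured KO, and 12.5%, 8.35% and 14.8% in injured WT against 4.95%, 23.2% and 4.30% in injured KO muscle. The share was below that of every WT library of the same state in KO replicates 1 and 3 and not in KO replicate 2, and its part in the differences between KO and WT was not tested. Injured KO replicate 2 also stood apart from the other 2 injured KO libraries in that its level of the nuclear RNA Malat1 was 288 RPM against 80.4 and 73.4 RPM. Among the injured WT libraries, replicate 2 held 494 RPM of Malat1 against 264 and 249 RPM. It was also the lowest of its group for Ly6a, Cd248, Dpt and Mfap5. All 10 markers were detected in all 12 libraries and passed the filter on low values.

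The promoters of 3 of the 10 genes, Pdgfra, Dpt and Pi16, were found in the RefSeq table used here (GRCm38.p6), which gives 250 bases before to 50 bases after each start. They are shown because Myf6 belongs to a family of factors that bind E-boxes, the motif CANNTG. Every marker that the RefSeq table held is shown, whatever its difference between KO and WT muscle. Each sequence runs 5′ to 3′ on the + strand, with every CANNTG in capitals, a motif that reads the same on both strands.
Pdgfra, chr5:75152001-75152300: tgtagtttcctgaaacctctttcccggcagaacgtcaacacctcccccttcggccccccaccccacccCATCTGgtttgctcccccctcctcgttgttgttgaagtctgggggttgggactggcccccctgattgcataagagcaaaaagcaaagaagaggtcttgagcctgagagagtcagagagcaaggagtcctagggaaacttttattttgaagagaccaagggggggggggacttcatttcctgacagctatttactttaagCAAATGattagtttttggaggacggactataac
Dpt, chr1:164796413-164796712: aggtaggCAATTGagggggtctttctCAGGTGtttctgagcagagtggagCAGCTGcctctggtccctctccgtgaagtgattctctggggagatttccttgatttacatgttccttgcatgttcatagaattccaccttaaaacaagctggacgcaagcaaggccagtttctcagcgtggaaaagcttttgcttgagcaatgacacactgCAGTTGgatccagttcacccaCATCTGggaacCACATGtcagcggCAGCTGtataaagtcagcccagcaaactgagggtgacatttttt
Pi16, chr17:29318632-29318931: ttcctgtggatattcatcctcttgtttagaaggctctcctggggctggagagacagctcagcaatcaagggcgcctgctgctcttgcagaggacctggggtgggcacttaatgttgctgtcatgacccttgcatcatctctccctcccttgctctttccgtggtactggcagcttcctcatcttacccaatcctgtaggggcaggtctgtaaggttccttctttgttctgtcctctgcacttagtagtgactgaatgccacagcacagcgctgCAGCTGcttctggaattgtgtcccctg
The Dpt window held 7 E-boxes, of which 2 were CAGCTG, 1 was CAGGTG and the remaining 4 had other central bases. At least 7 E-boxes occurred in 0.177% of the 32851 promoter windows of the table. The Pdgfra window held 2, a CATCTG and a CAAATG, and at least 2 occurred in 39.6% of windows. The single E-box of the Pi16 window was a CAGCTG, which 16.3% of windows contain. A match describes letters in a window and is not a measured binding site. The Pdgfra window lies wholly inside the gene span used below for peak distances, chr5:75151322-75198206, so its start is not the first base of that span. The Pi16 window begins before its gene span, chr17:29318796-29328903, but its start also lies inside that span and not at its first base.

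**Figure D1:**
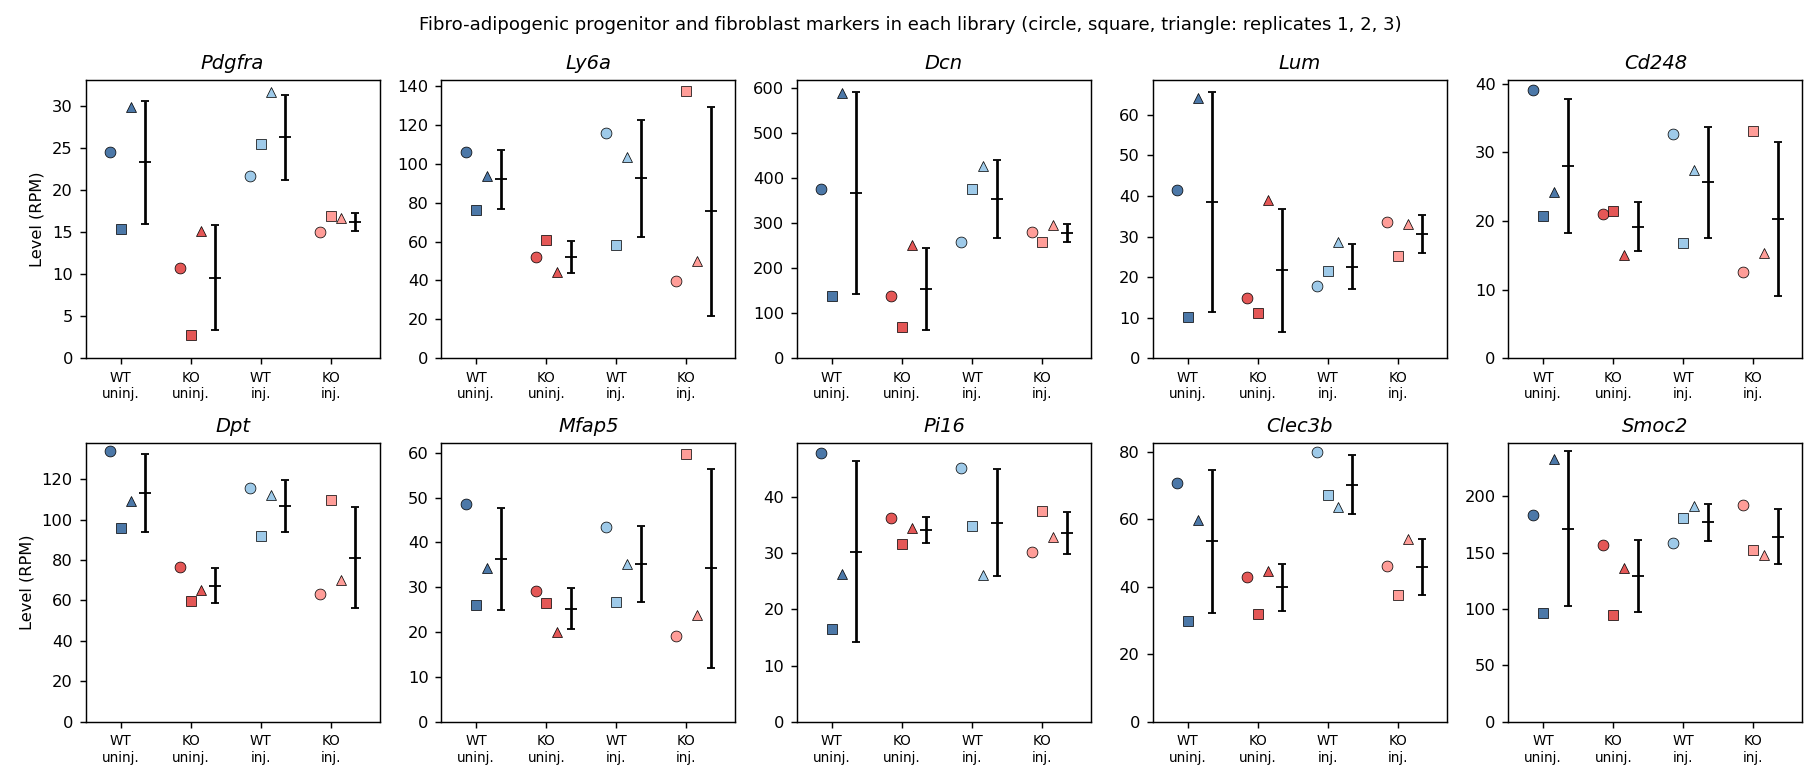
Level in RPM (y axis, linear from 0, own scale for each gene) of the 10 markers in each library of the 4 groups. Circles, squares and triangles are replicates 1, 2 and 3, and the bar beside them is the mean ± SD of the 3 libraries. Pdgfra, Ly6a and Dpt are lower in each uninjured KO library than in any uninjured WT library, and the square of injured KO stands above its group for Ly6a, Cd248, Dpt and Mfap5.

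The comparison of KO with WT muscle asks whether markers of connective tissue cells differ when the muscle factor Myf6 is missing. In uninjured muscle 9 of the 10 markers had a lower estimate in KO muscle and none passed the test, which was limma on log2(RPM + 1) with Benjamini-Hochberg adjustment over all genes and a threshold of 0.05. The same test called 35 of 12460 genes, which is 0.281%. The median difference over the 10 markers was -0.58 on the log2 scale, where the median of all genes tested was -0.18 and 63.2% of all genes had a lower estimate in KO. Before adjustment 1774 genes had a p under 0.05, and 3 of the 10 markers, Pdgfra, Ly6a and Dpt, were among them. These were also the 3 markers for which each KO library lay below each WT library, a pattern that 15.5% of all tested genes showed. No marker had each KO library above each WT library, as 6.20% of genes did. Without WT replicate 2 all 10 markers had a lower estimate, with a median of -0.78, and without each of the other 5 libraries in turn the count was 9, with medians from -0.58 to -0.35, the latter without WT replicate 1. The median over the markers was -0.35 with TMM scaling and -0.33 with upper quartile scaling, where the median of all genes was 0.03 and 0.04. A fit with the replicate number as a block called 2 of the 10 markers, Pdgfra and Dcn, where it called 752 of 12460 genes, or 6.04%. KO and WT libraries of the same number come from different animals, and the labels do not say whether they share a batch.

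Pdgfra, the receptor for PDGF-AA that defines FAPs in muscle, was at 24.5, 15.4 and 29.9 RPM in uninjured WT muscle and at 10.7, 2.83 and 15.2 RPM in uninjured KO muscle. The highest KO library lay just below the lowest WT library, and KO replicate 2 was far below the other 2. The means were 23.3 ± 7.34 and 9.58 ± 6.25 RPM (SD, n = 3 each), and the difference was -1.39 (SE 0.53) with a limma adjusted p of 0.285. Without KO replicate 2 the difference was -0.77 with a limma adjusted p of 0.315. In the authors' deposited table the log2 ratio of WT over KO was 1.18 (SE 0.45) with a q-value of 0.396.

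Ly6a, which encodes the surface antigen Sca-1 of FAPs and of endothelial cells, was at 106, 76.1 and 93.9 RPM in WT against 51.8, 60.8 and 44.4 RPM in uninjured KO muscle. The groups did not overlap, and the difference was -0.80 (SE 0.26) with a limma adjusted p of 0.219. Ly6a has close relatives in the Ly6 cluster, and how reads shared between them were assigned is not given in the sources used here. Cd248, which encodes endosialin, was at 39.1, 20.7 and 24.2 RPM in WT against 21.1, 21.4 and 15.1 RPM in KO. These ranges overlapped, and the difference was -0.49 (SE 0.33) with a limma adjusted p of 0.547. It was -0.23 without WT replicate 1.

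Dcn, which encodes the collagen-binding proteoglycan decorin, was at 375, 139 and 587 RPM in uninjured WT and at 139, 70.0 and 251 RPM in uninjured KO muscle. Libraries of 1 genotype differed by more than 3-fold, and WT replicate 2 was level with KO replicate 1. The difference was -1.21 (SE 0.58) with a limma adjusted p of 0.383, and the authors' deposited table gives a log2 ratio of WT over KO of 1.097 with a q-value of 0.428. Lum, the related proteoglycan lumican, was at 41.4, 10.1 and 64.1 RPM in WT against 14.8, 11.1 and 39.0 RPM in KO, and was lowest in the same WT library as Dcn. Its difference was -0.67 (SE 0.67) with a limma adjusted p of 0.702. Single libraries moved both estimates. For Dcn the difference was -1.79 without WT replicate 2, -0.76 without WT replicate 3 and -0.74 without KO replicate 2, with limma adjusted p-values of 0.3301, 0.702 and 0.530. For Lum it was -1.41 without WT replicate 2, -1.18 without KO replicate 3, -0.32 without KO replicate 2 and -0.14 without WT replicate 3, with limma adjusted p-values of 0.382, 0.318, 0.861 and 0.963.

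Dpt, which encodes the matrix protein dermatopontin, was at 134, 95.7 and 109 RPM in WT against 76.7, 59.9 and 65.1 RPM in KO. Each KO library lay below each WT library, and the difference was -0.73 (SE 0.25) with a limma adjusted p of 0.238. Mfap5, a component of elastic microfibrils, differed by -0.48 (SE 0.32) and Smoc2, a calcium-binding matrix protein, by -0.34 (SE 0.36), and the ranges of both overlapped. Smoc2 was at 183, 96.8 and 233 RPM in WT against 157, 94.8 and 136 RPM in KO. Its difference was -0.70 without WT replicate 2, -0.14 without KO replicate 2 and -0.07 without WT replicate 3, and that of Mfap5 was -0.25 without WT replicate 1.

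Of the fibroblast markers shared by many organs, Clec3b, which encodes tetranectin, was at 70.7, 29.8 and 59.9 RPM in WT against 42.9, 32.0 and 44.8 RPM in KO, and differed by -0.34 (SE 0.36). That difference was -0.71 without WT replicate 2, -0.22 without WT replicate 3, -0.19 without KO replicate 2 and -0.10 without WT replicate 1. Pi16, which encodes a peptidase inhibitor, was at 47.9, 16.5 and 26.4 RPM in WT against 36.2, 31.6 and 34.4 RPM in KO. The KO libraries all lay within the WT range, and Pi16 was the 1 marker with a higher estimate in KO, at 0.29 (SE 0.38). Without WT replicate 2 that estimate was -0.06, and without WT replicate 1 it was 0.68.

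**Figure D2:**
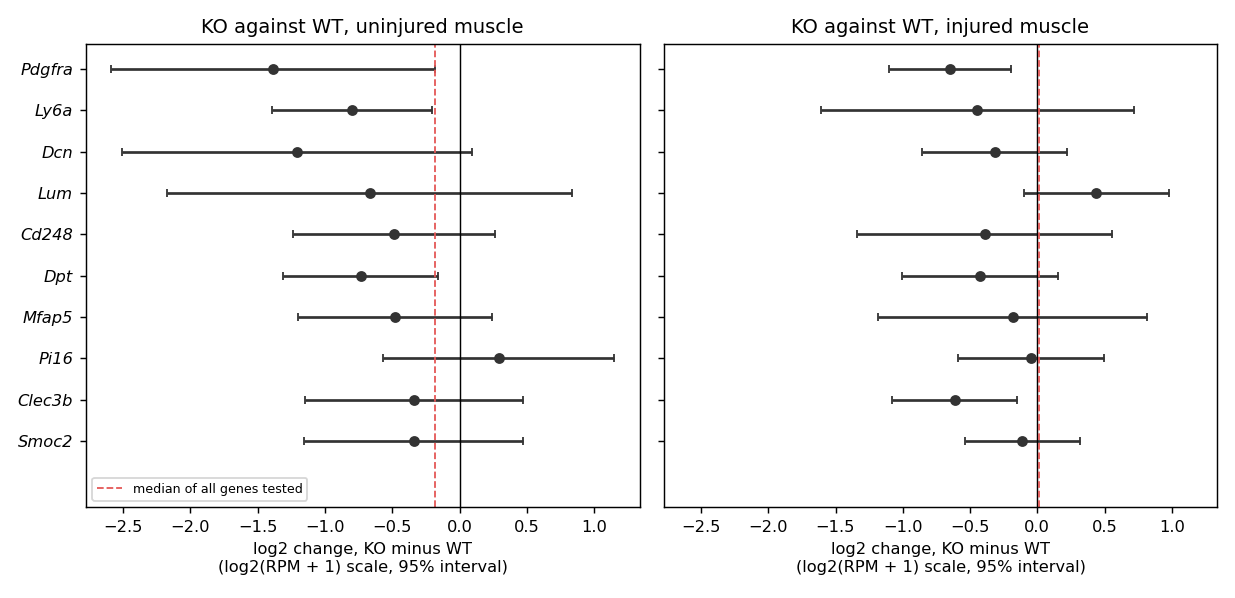
Difference between KO and WT muscle on the log2(RPM + 1) scale (x axis) for each of the 10 markers (y axis), with the 95% interval of the limma fit, in uninjured muscle (left) and injured muscle (right). The dashed line is the median of all genes tested, -0.18 in uninjured and 0.01 in injured muscle. The estimates lie left of 0 for 9 markers in each panel, the exception being Pi16 in uninjured and Lum in injured muscle.

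In injured muscle the same number of markers, 9 of 10, had a lower estimate in KO, and again none passed the limma test at an adjusted p of 0.05, which called 34 of 12625 genes, or 0.269%. The median over the 10 markers was -0.35, where the median of all genes was 0.01 and 48.0% of all genes had a lower estimate. Before adjustment 1303 genes had a p under 0.05, with 2 of the 10 markers, Pdgfra and Clec3b, among them. For these 2 markers each KO library lay below each WT library, as for 8.63% of genes, and no marker lay above, as 8.29% of genes did. With single libraries left out, 7 to 9 markers had a lower estimate, and the median ran from -0.57 without KO replicate 2 to -0.18 without KO replicate 1, with -0.23 without WT replicate 1.

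Pdgfra was at 21.7, 25.5 and 31.7 RPM in injured WT and at 15.0, 17.0 and 16.7 RPM in injured KO muscle. The KO libraries were close to each other and the groups did not overlap. The difference was -0.65 (SE 0.19), with means of 26.3 ± 5.05 and 16.2 ± 1.09 RPM (SD, n = 3 each) and a limma adjusted p of 0.333. DESeq2 on the recovered reads gave -0.70 with an adjusted p of 0.0423 for Pdgfra and called 427 of 12606 genes, or 3.39%, with no other marker among them. Over all alternatives the adjusted p of Pdgfra in injured muscle ran from 0.0423 to 0.976. In the authors' deposited table the log2 ratio of WT over KO was 0.68 (SE 0.25) with a q-value of 0.446.

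Clec3b was at 80.1, 67.2 and 63.7 RPM in injured WT and at 46.1, 37.5 and 54.1 RPM in injured KO muscle. The groups did not overlap, and the difference was -0.61 (SE 0.20) with a limma adjusted p of 0.369. Lum was at 17.7, 21.5 and 28.6 RPM in WT against 33.6, 25.2 and 33.1 RPM in KO, so that it was the 1 marker with a higher estimate in injured KO muscle, at 0.44 (SE 0.23) and a limma adjusted p of 0.561. Its neighbour in function, Dcn, was at 257, 377 and 426 RPM in WT against 281, 257 and 295 RPM in KO, a difference of -0.32 (SE 0.23).

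Injured KO replicate 2 held the highest level of its group for Ly6a, Cd248, Dpt, Mfap5 and Pi16, and by a small margin for Pdgfra. Ly6a was at 39.5, 137 and 49.8 RPM in the injured KO libraries and at 116, 58.3 and 103 RPM in the injured WT libraries. Mfap5 was at 19.2, 59.8 and 23.8 RPM in injured KO and at 43.5, 26.6 and 35.2 RPM in injured WT muscle. For both genes replicate 2 lay above every injured WT library and the other 2 KO libraries lay below every injured WT library.

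Dpt was at 63.3, 110 and 70.3 RPM in injured KO and at 116, 92.1 and 112 RPM in injured WT muscle, and differed by -0.43 (SE 0.24). Without injured KO replicate 2 the difference of Dpt was -0.66 with a limma adjusted p of 0.0274, and that of Pdgfra was -0.68 with a limma adjusted p of 0.0447. These 2 of the 10 markers then passed the test, as did 2343 of 12312 genes, or 19.0%. The count of lower estimates in that fit was again 9 of 10, with a median of -0.57, and over all alternatives the adjusted p of Dpt ran from 0.0274 to 0.9999. In the same fit Ly6a differed by -0.98 (limma adjusted p of 0.0526), Cd248 by -0.79 (0.0780) and Mfap5 by -0.66 (0.0730), and Lum by 0.57 (0.0890). With no library left out the differences were -0.45 (SE 0.49) for Ly6a, -0.39 (SE 0.40) for Cd248 and -0.18 (SE 0.42) for Mfap5. Their limma adjusted p-values were then 0.795, 0.775 and 0.916. Cd248 was at 12.6, 33.2 and 15.3 RPM in injured KO and at 32.7, 16.8 and 27.4 RPM in injured WT muscle.

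For Smoc2 and Pi16, as for Ly6a, Cd248 and Mfap5 with no library left out, the difference between injured KO and WT muscle was smaller than its standard error. Smoc2 differed by -0.11 (SE 0.18), with KO libraries at 192, 153 and 148 RPM and WT libraries at 158, 181 and 191 RPM. Pi16 differed by -0.05 (SE 0.23), with KO libraries at 30.2, 37.5 and 32.9 RPM inside the WT range of 26.1 to 45.2 RPM.

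**Figure D3:**
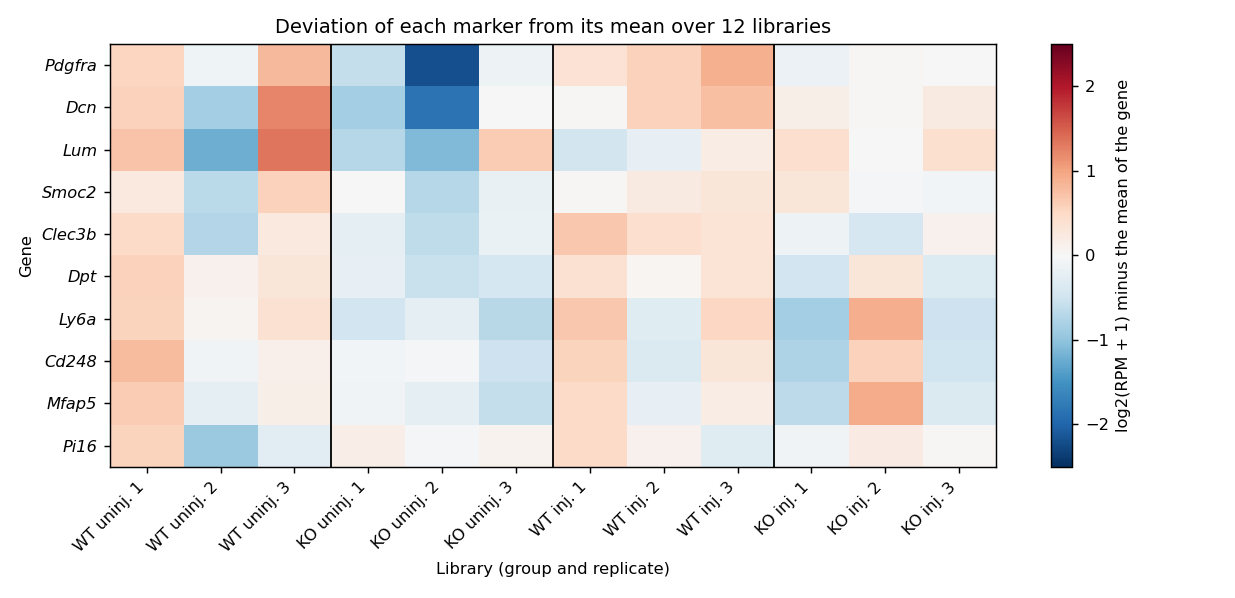
Deviation of each marker (rows) from its own mean over the 12 libraries (columns, 3 per group, separated by lines), in log2(RPM + 1), from blue (below the mean) to red (above). Uninjured KO replicate 2 is blue in every row but Cd248 and Pi16, where it is near 0, while injured KO replicate 2 is red for Ly6a, Cd248, Mfap5 and Dpt and near 0 for Pdgfra, Dcn, Lum and Smoc2.

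Across the 12 libraries the markers did not follow a single pattern. Mfap5 and Cd248 had a Pearson r of 0.944, Mfap5 and Ly6a 0.934, and Cd248 and Ly6a 0.928, computed on log2(RPM + 1). Dcn and Pdgfra had an r of 0.920, Smoc2 and Dcn 0.877, and Lum and Dcn 0.832. Between the first 3 genes and Pdgfra, Dcn, Lum or Smoc2, r ran from -0.01 for Cd248 and Lum to 0.40 for Ly6a and Pdgfra. Dpt correlated with genes of both groups, at 0.884 with Ly6a, 0.703 with Pdgfra and 0.548 with Dcn. The points share their library, its depth and its composition, and the values are a description over 12 libraries.

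In single libraries, all 10 markers were above their own mean in uninjured WT replicate 1 and none was in uninjured KO replicate 2. The 10 summed levels were 527 to 1262 RPM in uninjured WT, 411 to 665 RPM in uninjured KO, 888 to 1045 RPM in injured WT and 733 to 867 RPM in injured KO muscle. Uninjured WT replicate 2, the shallowest library, set the low end of its group and lay inside the uninjured KO range. The span from the lowest to the highest of the 12 libraries was 11.2-fold for Pdgfra and 8.39-fold for Dcn, and 2.24-fold for Dpt.

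The genes outside the marker set whose profile over the 12 libraries was most like the mean centred profile of the 10 markers were Zfp65, Tmem67, Il1r1, Clec4a2, Gm17530, Shprh, Mga, Pcf11, Morc3 and Zfp950. Their Pearson r ran from 0.951 to 0.975 over 12 libraries, the highest among 13327 genes. Some of them were near the floor, where 3 reads equal 1.60 RPM in uninjured WT replicate 2. Group means ran from 0.27 to 0.997 RPM for Gm17530, 0.63 to 2.27 for Clec4a2 and 0.80 to 2.97 for Tmem67. For Mga they ran from 14.1 to 30.6 RPM. None of these 10 genes is in the connective tissue or other cell type lists used here. Il1r1, the receptor for interleukin-1, had mean levels of 12.2 RPM in uninjured WT, 5.84 in uninjured KO, 13.0 in injured WT and 9.15 in injured KO muscle.

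Injury within a genotype gave no called gene at an adjusted p under 0.05 by limma on all 12 libraries, in WT (0% of 13337 genes) or in KO (0%), and the genotype by injury interaction gave none either (0%). Before adjustment 172, 468 and 208 genes had a p under 0.05, with 0 of the 10 markers in each. In WT muscle 5 markers had a higher and 5 a lower estimate after injury, with a median of 0.05 where all genes had 0.09. Of all genes 37.6% had a lower estimate after injury in WT. The largest estimate was 0.47 (SE 0.30) for Clec3b and the smallest -0.43 (SE 0.57) for Lum, and the ranges of injured and uninjured WT libraries overlapped for all 10, where 10.0% of genes showed no overlap.

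In KO muscle 19.1% of all genes had a lower estimate after injury, and the median of all genes was 0.29. Of the 10 markers 8 had a higher estimate there, with an equal median of 0.29. This count turned with the scaling: 6 markers were higher with TMM scaling, 3 with upper quartile scaling and 10 when reads of mitochondrial genes were left out of the total. Dcn was at 139, 70.0 and 251 RPM in uninjured KO and at 281, 257 and 295 RPM in injured KO muscle. It was the 1 marker whose injured and uninjured KO libraries did not overlap, as for 6.74% of genes, and the difference was 1.03 (SE 0.50) with a limma adjusted p of 0.728. Pdgfra differed by 0.94 (SE 0.44) with the same adjusted p of 0.728. In the interaction Lum had the largest estimate, 1.11 (SE 0.80), and every marker had a limma adjusted p of 0.9999.

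**Figure D4:**
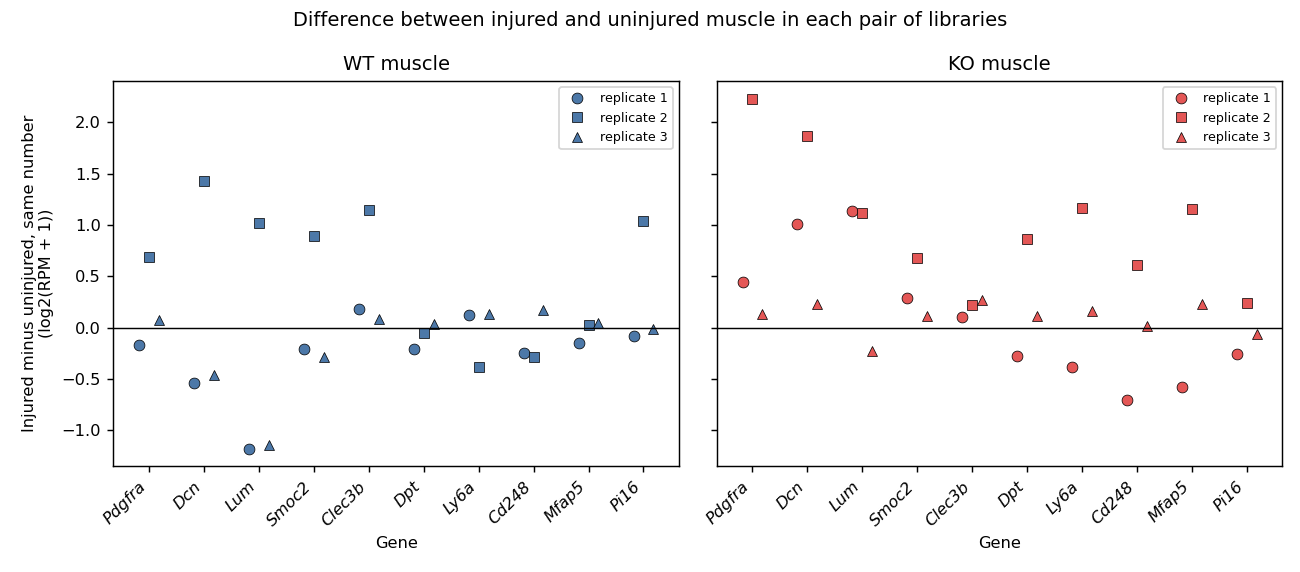
Injured minus uninjured level on the log2(RPM + 1) scale (y axis) of each marker (x axis) for the libraries that share a number, in WT (left) and KO (right) muscle. Circles, squares and triangles are replicates 1, 2 and 3. The squares lie highest for most markers in both panels.

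Compared by animal, the injured library was higher for 2, 7 and 6 of the 10 markers in WT replicates 1, 2 and 3, and for 5, 10 and 8 in KO replicates 1, 2 and 3. The share over all genes was not taken per animal. Between the groups, 37.6% of all genes in WT and 19.1% in KO had a lower estimate after injury. The median differences were -0.19, 0.79 and 0.04 in WT and -0.08, 0.99 and 0.13 in KO. Replicate 2 of each genotype therefore had the largest median difference. In WT this pair holds the shallow uninjured library. In KO it holds the injured library with 23.2% mitochondrial reads and an uninjured library with 15.3%, which had the lowest level of all 12 libraries for 4 of the 10 markers. The largest differences of that pair were those of Pdgfra, at 2.23, and Dcn, at 1.86. For both genes uninjured KO replicate 2 was the lowest of its group, while injured KO replicate 2 lay close to the other injured KO libraries. The part of depth and mitochondrial share in these differences was not tested.

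The PDGF axis holds the ligands and the other receptors of the pathway. None of its 6 genes passed the limma test in either KO comparison. In uninjured muscle 3 were lower and 3 higher in KO, with a median of -0.05 that was 0.08 with TMM and upper quartile scaling. The median was -0.55 without WT replicate 1 and -0.56 without KO replicate 3. In each of these fits only 5 of the 6 genes passed the filter, so those medians are over a different set of genes. Pdgfa, which encodes a ligand of PDGFRα, was at 40.9, 65.4 and 25.3 RPM in WT against 25.4, 19.1 and 23.5 RPM in KO, a difference of -0.83 (SE 0.37) with a limma adjusted p of 0.347. Pdgfd differed by -0.99 (SE 0.40). Pdgfrb, the receptor of pericytes and some fibroblasts, differed by 0.01 (SE 0.28), and Pdgfb, Pdgfc and the receptor-like Pdgfrl differed by 0.06, -0.10 and 0.57. In injured muscle the values ran from -0.56 for Pdgfa to 0.65 for Pdgfc, with -0.03 for Pdgfd, 0.03 for Pdgfb, 0.22 for Pdgfrb and 0.41 for Pdgfrl.

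A longer list of other FAP and fibroblast genes held 46 genes, of which 43 passed the filter and 0 passed the test in either KO comparison. In uninjured muscle 32 were lower and 11 higher in KO, with a median of -0.47, and in injured muscle 25 were lower and 18 higher, with a median of -0.14. In uninjured muscle 26 were lower with TMM and with upper quartile scaling and 27 without KO replicate 2, with medians of -0.25, -0.23 and -0.27. The median was also -0.28 without WT replicate 1 and -0.29 without WT replicate 3. In injured muscle it ran from -0.24 without KO replicate 2 to 0.03 without KO replicate 1, with single libraries left out. Efemp1, which encodes the matrix protein fibulin-3, was at 35.3, 16.0 and 36.8 RPM in uninjured WT and at 10.2, 3.07 and 10.4 RPM in uninjured KO muscle. The groups did not overlap and the difference was -1.83 (SE 0.50) with a limma adjusted p of 0.159. Ogn, which encodes the proteoglycan osteoglycin, differed by -1.30 and the transporter gene Abca8a by -1.27, while Dlk1, Eln and Gdf10 had the highest estimates, at 0.67, 0.88 and 1.02.

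In injured muscle the lowest estimates of this list were -0.79 for Gpx3, -0.76 for Abca8a and -0.69 for Fbln7. The highest were 0.72 for Dlk1, 0.73 for Eln, which encodes elastin, and 1.02 for Gdf10, a ligand of the TGF-β superfamily. The same 3 genes thus had the highest estimates of this list in both comparisons. Over the 12 libraries Dlk1 was at 0.75 to 4.49 RPM and Gdf10 at 1.06 to 13.6 RPM. The lowest Gdf10 value was in uninjured WT replicate 2, where 3 reads equal 1.60 RPM. Eln was at 33.3, 9.57 and 13.1 RPM in uninjured WT and at 35.3, 27.4 and 29.7 RPM in uninjured KO muscle.

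Genes of activated fibroblasts and of their matrix numbered 19 in the table, with 17 tested and 0 called in either KO comparison. In uninjured muscle 10 were lower and 7 higher in KO, a split that turned to 7 lower and 10 higher with TMM scaling and without KO replicate 2, and that ran from 5 to 13 lower with single libraries left out. In injured muscle 6 were lower and 11 higher. In uninjured muscle Fap, which encodes the protease fibroblast activation protein, was at 20.8, 20.7 and 14.2 RPM in WT against 6.01, 4.72 and 6.50 RPM in KO. Each KO library was below each WT library, and the difference was -1.53 (SE 0.33) with a limma adjusted p of 0.0933. Ctgf differed by -0.88 and Col3a1, a fibrillar collagen, by -0.65, while Tnc, Acta2 and Tgfb1 had estimates of 0.53, 0.91 and 1.32. Tgfb1, a growth factor that activates fibroblasts, was at 3.09, 1.06 and 3.20 RPM in WT against 8.52, 6.06 and 7.15 RPM in KO, with a limma adjusted p of 0.2013. The value of 1.06 RPM, in WT replicate 2, lies below the 1.60 RPM that 3 reads equal in that library.

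In injured muscle Fap was at 24.2, 12.3 and 21.2 RPM in WT against 6.53, 24.5 and 7.57 RPM in KO, where replicate 2 again stood apart, and the difference was -0.73. Ctgf and Col3a1 differed by -0.50 and -0.17, and Tnc, Acta2 and Spp1 by 0.94, 1.06 and 1.33. Acta2, the smooth muscle actin that also marks myofibroblasts, was at 56.2, 32.9 and 36.1 RPM in WT against 60.7, 121 and 86.1 RPM in KO, with a limma adjusted p of 0.333. Acta2 and Tagln are also in the list of pericytes and smooth muscle.

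**Figure D5:**
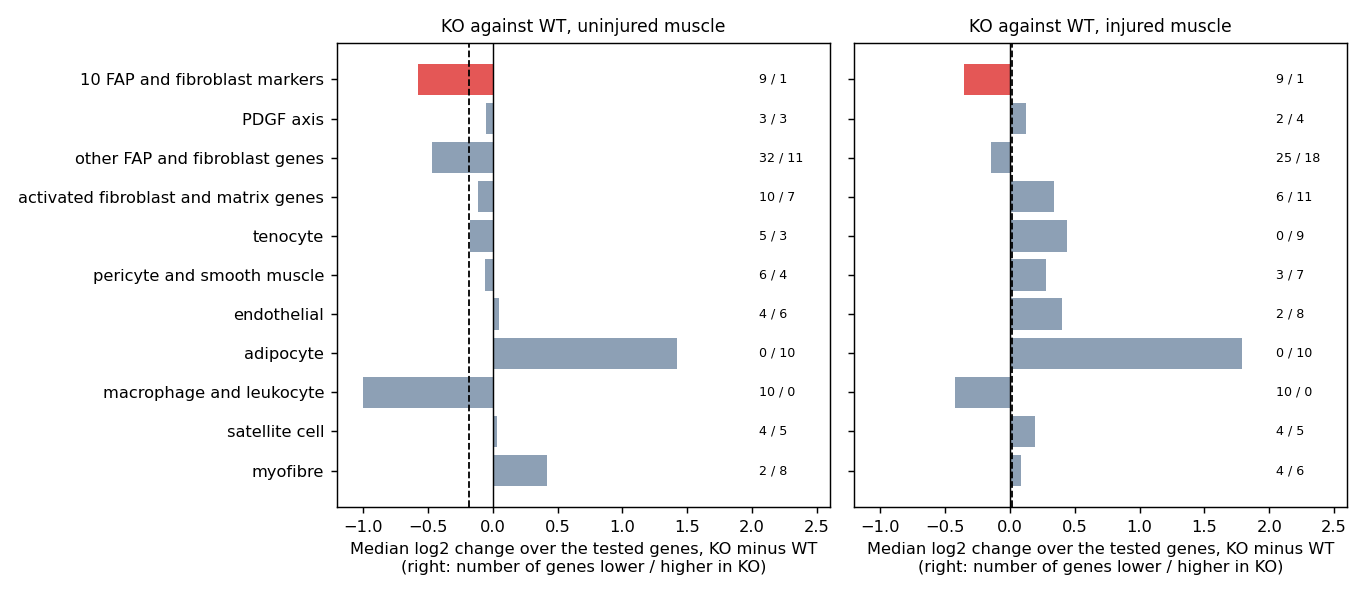
Median difference between KO and WT muscle (x axis, log2(RPM + 1) scale) over the tested genes of each list (y axis), in uninjured (left) and injured (right) muscle. Red marks the 10 FAP and fibroblast markers, grey the other lists, and the dashed line the median of all genes. Numbers at the right are genes lower and higher in KO. The macrophage list lies lowest and the adipocyte list highest in both panels.

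Of the markers of other cell types in whole muscle, no gene passed the test in either KO comparison. The 10 adipocyte genes all had a higher estimate in KO in both states, with medians of 1.42 in uninjured and 1.79 in injured muscle. This held under all 3 other scalings and without uninjured WT replicate 2, uninjured KO replicate 2 or injured KO replicate 2, and without uninjured KO replicate 1 the count in uninjured muscle was 9 of 10. Adipoq, the hormone adiponectin, was at 21.2, 18.1 and 70.9 RPM in uninjured WT and at 132, 37.3 and 105 RPM in uninjured KO muscle, and its difference of 1.38 had a limma adjusted p of 0.332. Plin1, which coats lipid droplets, and Cfd differed by 1.75 and 0.50 in uninjured muscle, and Adipoq, Plin1 and Cfd by 2.21, 2.27 and 1.20 in injured muscle.

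The 10 macrophage and leukocyte genes all had a lower estimate in KO, with medians of -0.999 in uninjured and -0.43 in injured muscle, and all 10 were also lower under the 3 other scalings and with each single library left out. Their summed level was 122.9 to 239 RPM in uninjured WT against 67.1 to 114 RPM in uninjured KO, and 153 to 210 RPM in injured WT against 124 to 137 RPM in injured KO muscle. Of their defining markers, Ptprc, the leukocyte antigen CD45, was at 0 in uninjured KO replicate 2 and differed by -1.33 in uninjured muscle, where Adgre1 and Csf1r differed by -0.81 and -0.31. In injured muscle Ptprc, Adgre1 and Csf1r differed by -0.31, -0.36 and -0.36.

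Endothelial genes, which bear on Ly6a, had medians of 0.05 in uninjured muscle, where TMM scaling gave 0.28 and upper quartile scaling 0.30, and 0.40 in injured muscle. Their sum was 423 to 512 RPM in uninjured KO, 429 to 518 RPM in uninjured WT, 287 to 547 RPM in injured WT and 417 to 1020 RPM in injured KO muscle. The highest value was that of injured KO replicate 2. Pecam1, Cdh5 and Kdr differed by 0.30, 0.09 and -0.31 in uninjured and by 0.59, 0.59 and 0.43 in injured muscle. With single libraries left out, the endothelial median in injured muscle ran from 0.03 without KO replicate 2 to 0.63 without KO replicate 3, and was 0.08 without WT replicate 2.

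Pericyte and smooth muscle genes had medians of -0.06 in uninjured muscle, where TMM scaling gave 0.15, and 0.28 in injured muscle, with Rgs5, Cspg4 and Kcnj8 at -0.46, -0.01 and -0.34 in uninjured and 0.09, 0.33 and -0.08 in injured muscle. Tenocyte genes had medians of -0.17, where TMM scaling gave 0.03, and 0.44, with Tnmd at -0.18 and 0.44 and Scx at -0.16 and 0.09, while Mkx did not pass the filter. Satellite cell genes had medians of 0.04 and 0.19, with Pax7 at -0.47 and -0.40, Myf5 at 0.04 and 0.46 and Chodl at -1.74 and -0.67. With single libraries left out, the median of pericyte and smooth muscle genes in injured muscle ran from 0.06 (without KO replicate 2) to 0.44. That of tenocyte genes ran from 0.04 (without WT replicate 3) to 0.74 (without KO replicate 1), and was 0.18 without KO replicate 2. That of satellite cell genes ran from 0.08 (without KO replicate 2) to 0.24. In uninjured muscle all 3 medians changed sign between such fits, from -0.15 to 0.17, from -0.40 to 0.19 and from -0.20 to 0.21 in the same order.

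The 10 myofibre genes, the bulk of the tissue, took 13.7% to 15.1% of reads in uninjured WT and 18.1% to 20.9% in uninjured KO muscle, and 14.1% to 17.7% in injured WT and 13.4% to 18.0% in injured KO muscle. Acta1, Ckm and Tnnt3 differed by 0.35, 0.96 and 0.44 in uninjured and by -0.17, 0.52 and -0.06 in injured muscle. Malat1 was at 213 to 284 RPM in uninjured WT and 81.1 to 106 RPM in uninjured KO muscle, and at 249 to 494 RPM in injured WT and 73.4 to 288 RPM in injured KO muscle. The part of myofibre share, mitochondrial share, Malat1 level and other cell types in the marker differences was not tested.

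The ChIP-seq list, from chromatin of myotubes and not of fibroblasts, held 12898 peaks. Scores per peak are the authors'. A peak summit lay within 10 kb of the gene span for 2 of the 10 markers, Dpt and Pi16, where 25.8% of 21887 protein-coding genes had one, and within 100 kb for 4 of 10, where 60.6% had one. Dpt (chr1:164796663-164824274) contained 2 peaks, chr1:164815625-164815767 with a fold enrichment of 3.87 and chr1:164822104-164822327 with 10.6. Both lie downstream of the 300 bases of promoter shown above, which held no summit.

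Pi16 (chr17:29318796-29328903) had peaks at chr17:29311775-29311944, with a fold enrichment of 7.77 and its summit 6.93 kb before the gene, and at chr17:29338564-29338756, with 16.8 and its summit 9.78 kb past the gene's end, among 11 within 100 kb. The nearest summits to Cd248 and Smoc2 lay 15.8 and 29.7 kb away. Those nearest to Clec3b, Pdgfra and Ly6a lay 128, 146 and 224 kb away. Dcn (chr10:97479500-97518163) and Lum (chr10:97565501-97572703) neighbour each other on the chromosome that carries Myf6, 9.97 and 9.92 Mb before it, and shared a nearest summit at 605 and 691 kb. That of Mfap5 lay 1106 kb away.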

How the data were processed

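Libraries of total RNA were made with the TruSeq RNA v2 kit, per the labels' protocols, and the submitters' processing notes name HISAT2 2.1.0, SAMtools, featureCounts and DESeq2 with mm10 and GRCm38.p5. The authors deposited RPM per gene and library, with their own log2 ratio, p-value and q-value. The authors' peak list, per the file headers from MACS2 2.1.0.20140616, gives pileup signal, fold enrichment and −log10 p-values and q-values. How shared reads and strand were treated is not given in the sources used here. Of the rows, 203 have an identifier but no symbol and were kept.

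All values that could be tested were whole reads within 0.1 read (100% in every library), and depth is from these. A floor of 3 reads equals 0.0607 to 1.60 RPM and covers counting error only. The test was limma 3.58.1 (R 4.3.3), two-sided, on log2(RPM + 1), with eBayes trend, kept to genes that reached 1 RPM in 3 or more of the libraries fitted, adjusted by Benjamini-Hochberg over all of them. KO against WT used its 6 libraries, and injury and interaction used all 12. The injury comparisons set libraries from 2 tables side by side, each scaled to its own total. DESeq2 1.42.0 and edgeR 4.0.16 on recovered reads were alternatives. The programs were tested on simulated data with set changes and the same spread for every gene, which does not test the calls made here.

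Replicates are separate animals as the numbers are read here, and the same number in injured and uninjured libraries pairs them. Their deviations from the group means correlated at 0.28, -0.23 and 0.02 in WT and 0.02, 0.50 and 0.63 in KO, and the animal block changed no call of a marker. If the numbers do not mark animals, p-values measure only the spread between libraries.

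Named are all 10 markers, Myf6, the 3 highest and 3 lowest genes of the PDGF, fibroblast and activated fibroblast lists in each KO comparison, 3 defining genes of each other list and the 10 genes of most similar profile. Members and lists were chosen with earlier results of these data known. One planned list of cell type markers is not reported here. The plan set peak distance from start sites. Gene spans of RefSeq (GRCm38.p6) were used instead, because the gene table gives no strand.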

Additional observations from a re-analysis of the deposited data

How the results depend on the processing

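In uninjured muscle the 35 genes called between KO and WT became 108 with TMM scaling, 155 with upper quartile scaling, 205 with scaling to reads outside mitochondrial genes, 1 with no filter, 20 with a pseudocount of 0.1, 663 with DESeq2, 55 with edgeR, 167 with all 12 libraries in 1 fit and 331 by the authors' deposited q-values, and 3 to 84 with single libraries left out, with 5 without WT replicate 1, 10 without WT replicate 2, 5 without WT replicate 3, 3 without KO replicate 1 and 84 without KO replicate 3. The share of called genes that were higher in KO was 45.7%, against 56.5%, 63.9% and 15.6% under the 3 scalings in that order, and the median of all genes moved from -0.18 to 0.03, 0.04 and -0.32. None of these settings called a marker, and 9 of 10 markers stayed lower in both KO comparisons under all 3 scalings. Under a replicate block, 752 of 12460 genes (6.04%) and 2 of the 10 markers were called in uninjured muscle, Pdgfra with a limma adjusted p of 0.0288 and Dcn with 0.00869, where the adjusted p over all alternatives reached 0.707 and 0.791. Same-numbered KO and WT libraries come from different animals, and their deviations correlated at 0.04, 0.26 and 0.37 in uninjured and -0.45, -0.60 and -0.30 in injured muscle. Uninjured KO replicates 2 and 3 correlated best with the WT library of their own number, and KO replicate 1 with WT replicate 2, at 0.09. Whether libraries of the same number shared a batch cannot be told from these values.

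In injured muscle the 34 genes called became 19 with no filter, 427 with DESeq2, 0 with the replicate block, 56 with all 12 libraries in 1 fit and 225 by the authors' deposited q-values, and 0 to 2343 with single libraries left out, 2343 without KO replicate 2 and 0 without any other library. DESeq2 called 1 marker, Pdgfra, and leaving out single libraries 0 to 2. For injury in KO muscle, leaving out single libraries called 0 to 1 gene, the latter without uninjured KO replicate 3.

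Estimates changed sign without any passing the test, and the cause was not tested. With a library left out, KO minus WT ran from -0.062 to 0.68 for Pi16 in uninjured muscle, and in injured muscle from -0.66 to 0.13 for Mfap5 and -0.24 to 0.14 for Pi16. For injury in WT the ranges were -0.059 to 0.40 for Pdgfra, -0.23 to 0.26 for Ly6a, -0.44 to 0.59 for Dcn, -1.18 to 0.10 for Lum, -0.32 to 0.14 for Cd248, -0.19 to 0.053 for Dpt, -0.24 to 0.20 for Mfap5, -0.041 to 0.70 for Pi16 and -0.23 to 0.40 for Smoc2. For injury in KO they were -0.22 to 0.66 for Ly6a, -0.42 to 0.24 for Cd248, -0.0036 to 0.39 for Dpt, -0.21 to 0.58 for Mfap5 and -0.11 to 0.046 for Pi16. For the interaction they were -0.18 to 0.70 for Ly6a, -0.30 to 0.36 for Cd248, -0.19 to 0.61 for Mfap5, -0.73 to 0.016 for Pi16, -0.52 to 0.093 for Clec3b and -0.037 to 0.59 for Smoc2. On recovered reads, injury in WT was -0.082 for Dcn by DESeq2 and -0.067 by edgeR, and -0.0099 for Smoc2 by DESeq2. Injury in KO with TMM scaling was -0.038 for Dpt and -0.072 for Clec3b. With upper quartile scaling it was -0.057 for Ly6a, -0.14 for Dpt, -0.10 for Mfap5, -0.17 for Clec3b and -0.012 for Smoc2. Without mitochondrial reads in the total it was 0.017 for Cd248 and 0.015 for Pi16. DESeq2 gave -0.0445 for Dpt and -0.088 for Clec3b, and edgeR -0.0347 and -0.078. The interaction of Cd248 was -0.11 with TMM, -0.18 with upper quartile scaling, -0.056 by DESeq2 and -0.051 by edgeR, and that of Smoc2 was -0.062 with upper quartile scaling.

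With 3 libraries in each group an exact permutation test cannot go below 0.1. The shallowest library, uninjured WT replicate 2, held 1880087 reads, and without it the standard error of the KO difference was 0.61 for Pdgfra, 0.30 for Ly6a and 0.30 for Dpt, against 0.53, 0.26 and 0.25 with it.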

Other observations

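The ratio of the levels of Dcn and Lum, neighbouring genes for proteoglycans that bind collagen, was chosen for a look after its values were seen. In injured muscle the ratio was 14.5, 17.5 and 14.9 in the WT libraries and 8.35, 10.2 and 8.93 in the KO libraries, so that the groups did not overlap, with means of 15.6 ± 1.61 and 9.16 ± 0.94 (SD, n = 3 each). No test is given, since the ratio was chosen for this separation. In uninjured muscle the ratio was 9.07, 13.8 and 9.16 in WT and 9.41, 6.31 and 6.44 in KO, where the groups overlapped. The 13.8 is that of WT replicate 2, the shallowest library, where Lum rests on 19 reads. The injured KO values lay between the means of uninjured WT, 10.7 ± 2.70, and uninjured KO muscle, 7.39 ± 1.76 (SD, n = 3 each). The injured WT libraries lay above all others. A ratio of RPM values of different genes depends on their lengths, so only its change between libraries can be read. Kera, a further proteoglycan gene of the same stretch of chromosome 10, was at 1.64 to 13.6 RPM over the 12 libraries, and Epyc at 0 to 0.304 RPM.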
